A study of Mus musculus with 26 samples.

Results

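The 100 array probes described here were those that stood highest in TN2 and TN3a thymocytes, the stages at which an early thymocyte becomes committed to the T cell lineage, relative to the stages before and after. They were chosen from 46237 probes by a score on log2 values: the lower of the TN2 and TN3a stage means minus the highest of the ETP, TN4, ISP and DP stage means. Levels of TN3b and of the leukaemias did not enter that difference, although the TN3b arrays were among the 15 normalised together for it; 99 of the 100 were the same when they were left out. The 100 members comprised 92 probes with a gene name and 8 without, and they named 78 genes. In 13 genes more than 1 probe was a member, which accounted for 27 of the probes. Because measured values chose the members, their height in TN2 and TN3a is given as a description with no test.

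The series held 26 mouse Illumina bead arrays, 10 from leukaemias of the T cell lineage (T-ALL) and 16 from normal thymocytes at 7 stages defined by surface phenotype. The leukaemias were 3 Rag-deficient tumours on the C57BL/6 background and 7 Rag-proficient tumours from F1(WB x B6/Ly5.1) mice, so Rag status and strain cannot be told apart. Neither the Rag gene concerned nor what started the tumours is named in the labels. The thymocytes were from C57BL/6 mice, and all material was taken in vivo. ETP cells (2 arrays) were lineage-, CD44+, CD25- and Kit+. The triple negative stages lacked CD4, CD8 and CD3 and were set apart further: TN2 (2 arrays) as CD44+ CD25+, TN3a (3 arrays) as CD44- CD25+ CD28-, TN3b (2 arrays) as CD44- CD25+ CD28+ and TN4 (3 arrays) as CD44- CD25- CD28+. ISP cells (2 arrays) were CD4- CD8+ CD24+ and negative for the T cell receptor beta chain, and DP cells (2 arrays) were CD4+ CD8+. The labels give no ages and do not tie arrays to individual animals, so p-values reflect the spread from array to array, which may be technical.

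Early thymocytes enter the thymus with several lineage options open. Under Notch signalling and interleukin 7 they begin to express CD25 at TN2 and commit to the T lineage, and at TN3 they rearrange the T cell receptor beta, gamma and delta loci with the Rag recombinase. Cells that make a working beta chain assemble the pre-T cell receptor, leave the resting TN3a state for the cycling TN3b state, and go on to TN4 and DP. Without Rag, this step, called beta selection, cannot take place in the normal way, and T-ALL in mice commonly arises from cells arrested around these stages.

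The promoters of 6 members are shown: Il2ra, Myl10, Cdkn1a and Il7r, whose levels are described first, and Dpp4 and Pparg, which like Myl10 hold the core word of RBPJ, the DNA-binding partner of Notch. Sequences are from RefSeq on build GRCm38.p6, read 5′ to 3′ on the gene's strand, from 250 bases before the annotated start to 50 bases after it, with motif matches in capitals. Il2ra lies at chr2:11642542-11642841 (plus strand), Myl10 at chr5:136692896-136693195 (plus), Cdkn1a, of which the second annotated start is shown, at chr17:29093519-29093818 (plus), Il7r at chr15:9529827-9530126 (minus), Dpp4 at chr2:62412182-62412481 (minus) and Pparg at chr6:115421816-115422115 (plus).
Il2ra: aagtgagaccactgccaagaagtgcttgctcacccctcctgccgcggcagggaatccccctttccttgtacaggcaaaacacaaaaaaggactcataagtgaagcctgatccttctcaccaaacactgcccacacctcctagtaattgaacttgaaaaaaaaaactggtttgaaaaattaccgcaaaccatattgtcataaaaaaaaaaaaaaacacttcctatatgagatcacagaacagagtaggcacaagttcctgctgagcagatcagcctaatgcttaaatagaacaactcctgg
Myl10: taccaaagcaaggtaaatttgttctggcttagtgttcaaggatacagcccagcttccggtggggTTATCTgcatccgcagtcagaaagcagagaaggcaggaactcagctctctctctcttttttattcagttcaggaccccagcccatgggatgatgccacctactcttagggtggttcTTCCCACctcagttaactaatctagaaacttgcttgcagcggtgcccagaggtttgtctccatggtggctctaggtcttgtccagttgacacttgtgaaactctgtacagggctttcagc
Cdkn1a: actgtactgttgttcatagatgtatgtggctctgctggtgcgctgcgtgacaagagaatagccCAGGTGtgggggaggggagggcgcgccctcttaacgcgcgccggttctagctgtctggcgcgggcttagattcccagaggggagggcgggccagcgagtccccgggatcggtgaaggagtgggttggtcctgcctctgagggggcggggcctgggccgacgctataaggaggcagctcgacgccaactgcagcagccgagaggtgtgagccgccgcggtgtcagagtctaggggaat
Il7r: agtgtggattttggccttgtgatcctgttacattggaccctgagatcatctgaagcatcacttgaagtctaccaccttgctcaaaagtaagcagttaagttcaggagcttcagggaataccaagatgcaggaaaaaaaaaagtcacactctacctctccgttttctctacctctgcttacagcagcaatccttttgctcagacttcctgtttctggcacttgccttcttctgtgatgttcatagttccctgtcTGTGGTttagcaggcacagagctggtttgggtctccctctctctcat
Dpp4: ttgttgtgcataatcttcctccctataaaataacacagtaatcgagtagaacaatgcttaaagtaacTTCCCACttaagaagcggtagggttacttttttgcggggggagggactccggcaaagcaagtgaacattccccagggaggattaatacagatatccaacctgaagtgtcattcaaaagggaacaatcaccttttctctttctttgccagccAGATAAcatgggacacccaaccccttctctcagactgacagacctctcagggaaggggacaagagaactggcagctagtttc
Pparg: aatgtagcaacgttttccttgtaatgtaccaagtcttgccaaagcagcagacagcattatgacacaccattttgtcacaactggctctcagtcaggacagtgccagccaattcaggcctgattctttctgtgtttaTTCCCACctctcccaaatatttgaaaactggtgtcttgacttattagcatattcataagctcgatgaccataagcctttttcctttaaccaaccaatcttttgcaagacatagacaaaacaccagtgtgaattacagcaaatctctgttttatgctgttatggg
Myl10 holds the RBPJ word (GTGGGAA, here as its reverse complement) 70 bases before the start and a Gata word 186 bases before it. Dpp4 holds the RBPJ word 183 bases before the start and a Gata word 32 bases before it, and Pparg holds the RBPJ word 114 bases before the start. Myl10 and Pparg have other annotated starts, whose windows lack the RBPJ word and are not shown. In Cdkn1a the capitals mark an E-box 187 bases before the start, and in Il7r a Runx word beginning at base 4 of the transcript. None of the searched words was present in the Il2ra window.

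Promoters were found for 54 of the 78 member genes, 73 promoters in all, and were searched on both strands for words of 5 factor families with roles in early T cells. The RBPJ word GTGGGAA was in 5 of 73 member promoters (6.85%), those of Myl10, Dpp4, Pparg, Tmem242 and Slc27a1, against 6.38% of all 32851 promoters in the table. The E-box words CAGGTG or CAGCTG, bound by E proteins, were in 27 (37%), against 32.9% of all promoters. The Runx word TGTGGT was in 10 (13.7%), against 16.8%, and the Tcf1 or Lef1 word CTTTGAA was in 3 (4.11%), against 5.14%. The Gata words AGATAA or TGATAA were in 7 (9.59%), against 18.6% of all promoters. These are matches of letters in one window and carry no statement on binding.

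Within the choice of members, scores ran from 4.07 log2 units for ILMN_2550885, a probe without a gene name, to 0.381. The last members were probes of Ankrd27, Wbp1 and Vopp1, and the first probes outside, of Prssl1, Use1 and Fut8, began at 0.379. Of all probes, 2644 had a score above 0, and 26 members were at least 2-fold higher in TN2 and TN3a than in the next stage. The stage that came closest was TN4 for 36 members, ETP for 35, ISP for 19 and DP for 10. TN2 was above TN3a in 51 members. The levels below are log2 intensities after background correction and joint normalisation of all 26 arrays. Differences with a test come from the separate normalisation of each fit and therefore deviate slightly from the differences of these levels.

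TN2 replicate 2 stood apart from the other arrays and was left out of the rule. It gave a detectable signal (detection p under 0.01 against the array's background) for 21.4% of probes, against 34.7% to 41.8% on the other thymocyte arrays, and its correlation with other arrays of thymocytes was 0.814 to 0.889. On this array, which the score did not use, 80 of 100 members were detected and 70 were above both the ETP and the TN4 array of its own slide, as were 38.5% of all probes. Those ETP and TN4 arrays did enter the score, which chose members low on them, so nothing is read from this excess. For TN3a replicate 2, on the same slide and used by the rule, the corresponding count was 97. Members near background on TN2 replicate 2 included Ddc, Map7 and Vopp1. Where TN2 is given by array, replicate 1 comes first.

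Among the 20 highest scores were 2 cytokine receptor genes, Il2ra at rank 2 and Il7r at rank 16. Il2ra, which encodes CD25, the alpha chain of the interleukin 2 receptor and one of the antigens used for the sort, stood at 5.32 and 4.61 in ETP, 10.72 and 10.33 in TN2, 10.59, 10.98 and 10.96 in TN3a and 9.15 and 8.76 in TN3b. It was at 5.25, 5.14 and 4.96 in TN4, 4.18 and 4.42 in ISP and 4.48 and 5.38 in DP. Its TN2, TN3a and TN3b arrays lay clear of the other stages, and CD25 was part of those gates. Il7r, the alpha chain of the interleukin 7 receptor, was at 8.29 and 7.83 in ETP, 10.74 and 10.98 in TN2 and 10.47, 10.19 and 10.29 in TN3a. It was at 9.77 and 9.57 in TN3b, 8.74, 9.54 and 8.77 in TN4, 6.15 and 6.55 in ISP and 4.68 and 5.04 in DP. Unlike the CD25 transcript, it was therefore well above its DP level at ETP and at TN4. Stat5a, a transcription factor that acts downstream of both receptors, had 1 member probe with a narrow range: it averaged 9.15 in ETP, was at 10.13 and 10.30 in TN2, and averaged 10.13 in TN3a, 9.53 in TN3b and 9.46 in DP. Socs2, a suppressor of cytokine signalling, averaged 6.48 in ETP, was at 9.67 and 6.44 in TN2, and averaged 8.06 in TN3a, 5.19 in TN3b and 4.76 in DP, so TN2 replicate 2 lay within the range of the ETP arrays. Il17rb, a receptor of the interleukin 17 family, averaged 7.81 in ETP, was at 10.48 and 9.93 in TN2, and averaged 10.39 in TN3a, 9.33 in TN3b and 6.98 in DP.

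Rearranging T cell receptor genes and cell cycle control were each represented. Tcrg-V4, a variable segment of the T cell receptor gamma chain, was at 9.51 and 7.91 in ETP, 13.51 and 12.74 in TN2 and 13.35, 12.94 and 13.43 in TN3a. It was at 11.56 and 11.82 in TN3b, 10.82, 11.07 and 10.84 in TN4, 7.77 and 8.42 in ISP and 6.07 and 5.22 in DP, an orderly decline after TN3a with no overlap between TN3a, TN3b and TN4. Gamma variable segments resemble one another, and whether the probe separates them was not tested. Cdkn1a, the cyclin-dependent kinase inhibitor p21, had 3 member probes. ILMN_2634083 was at 5.59 and 4.46 in ETP, 9.31 and 8.51 in TN2, 10.53, 9.58 and 9.96 in TN3a and 6.54 and 7.11 in TN3b, and it was no higher than 6.10 on the arrays of TN4, ISP and DP. For both genes the TN3b arrays lay closer to the TN4 arrays than to the TN3a arrays. Bcl2, which blocks apoptosis, had 2 member probes, of which ILMN_1249021 averaged 6.88 in ETP, was at 9.29 and 8.11 in TN2, and averaged 8.69 in TN3a, 7.66 in TN3b and 5.37 in DP.

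Other members have roles outside the classical T cell programme. Myl10, a myosin regulatory light chain, was at 11.08 and 8.65 in ETP, 12.74 and 12.41 in TN2 and 13.42, 12.03 and 11.91 in TN3a, and its TN3b arrays were at 8.74 and 8.90. The peak arrays were above all others, but the ETP arrays differed from each other by more than 2 log2 units. Esm1, a secreted proteoglycan, was at 6.20 and 5.51 in ETP, 11.21 and 10.54 in TN2, 9.69, 9.35 and 9.21 in TN3a and 9.52 and 9.32 in TN3b. H19, an imprinted long non-coding RNA, was at 4.66 and 4.23 in ETP, 7.48 and 5.07 in TN2, 11.51, 11.71 and 12.35 in TN3a and 7.40 and 7.54 in TN3b. It therefore peaked at TN3a by a wide margin, and its TN2 arrays differed by more than its TN3a arrays. Sema4a, a semaphorin with a score of 1.87, Mzb1, an endoplasmic reticulum protein of B cells (1.70), and Mst1r, a receptor tyrosine kinase (1.19), were among the 20 highest scores. Cdh1, the adhesion molecule E-cadherin, and Drosha, the nuclear enzyme that begins microRNA processing, were also members. The Rab family GTPases Rab27a, Rab38 and Rab44 were all members.

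In 71 of the 100 members TN2 replicate 1 and all TN3a arrays lay above all 9 arrays of ETP, TN4, ISP and DP. TN3a replicates 2 and 3 alone did so for 78 members. These arrays chose the members, and no share over all probes was computed, so nothing is read from either count. Among the members without such a separation was H2-Q8, a non-classical class I histocompatibility gene. It was at 8.07 on TN2 replicate 1 and 8.60 on TN3a replicate 1, both on slide 4, but at 4.47 on TN2 replicate 2 and at 5.63 and 5.51 on the other TN3a arrays. In TN3a all 100 members were detected on every array, against 81 in ETP, 80 in TN2 with replicate 2 included, 89 in TN3b, 81 in TN4, 75 in ISP and 62 in DP. Of all probes 32.2% were detected on every TN3a array, 32.7% in ETP, 19.1% in TN2 and 32.4% in TN3b. The shares were 31.2% in TN4, 31.3% in ISP and 31.2% in DP. The median member level was 7.44 in ETP, 8.89 in TN2, 9.39 in TN3a, 7.93 in TN3b, 7.49 in TN4, 6.70 in ISP and 6.29 in DP. In bulk material, fewer cells of a type and less RNA per cell cannot be told apart.

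**Figure D1:**
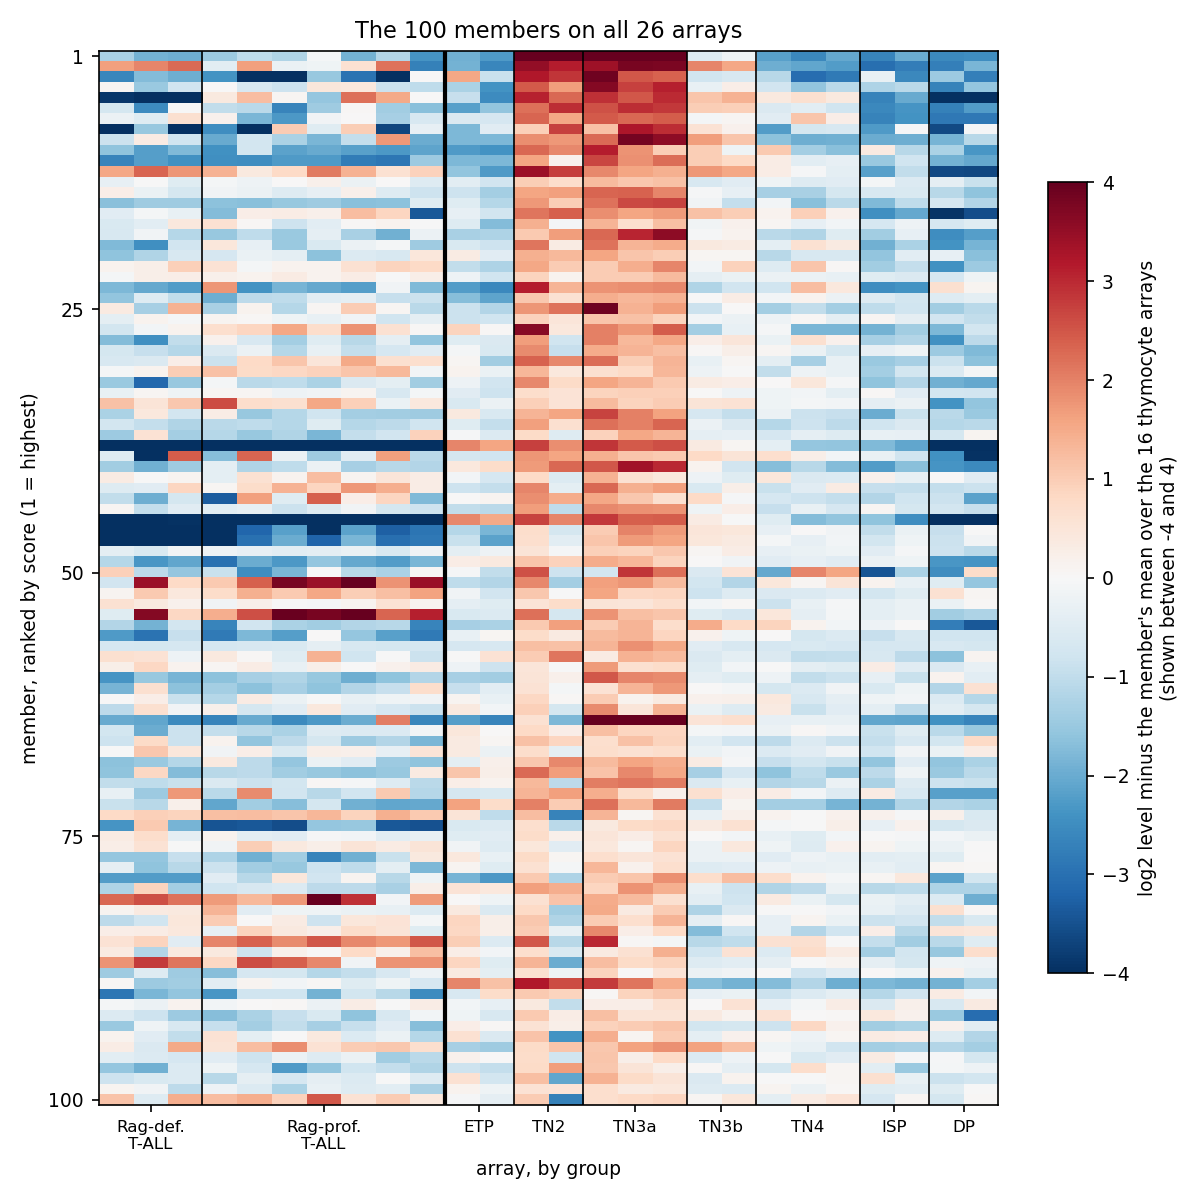
Levels of the 100 member probes (down the page, by score) on each of the 26 arrays (across), as log2 intensity minus each probe's mean over the 16 thymocyte arrays, with the leukaemias left of the stages and the stages in developmental order. TN2 and TN3a form the high block that the rule chose, TN3b lies lower, and the leukaemias show no block of their own across the members.

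**Figure D2:**
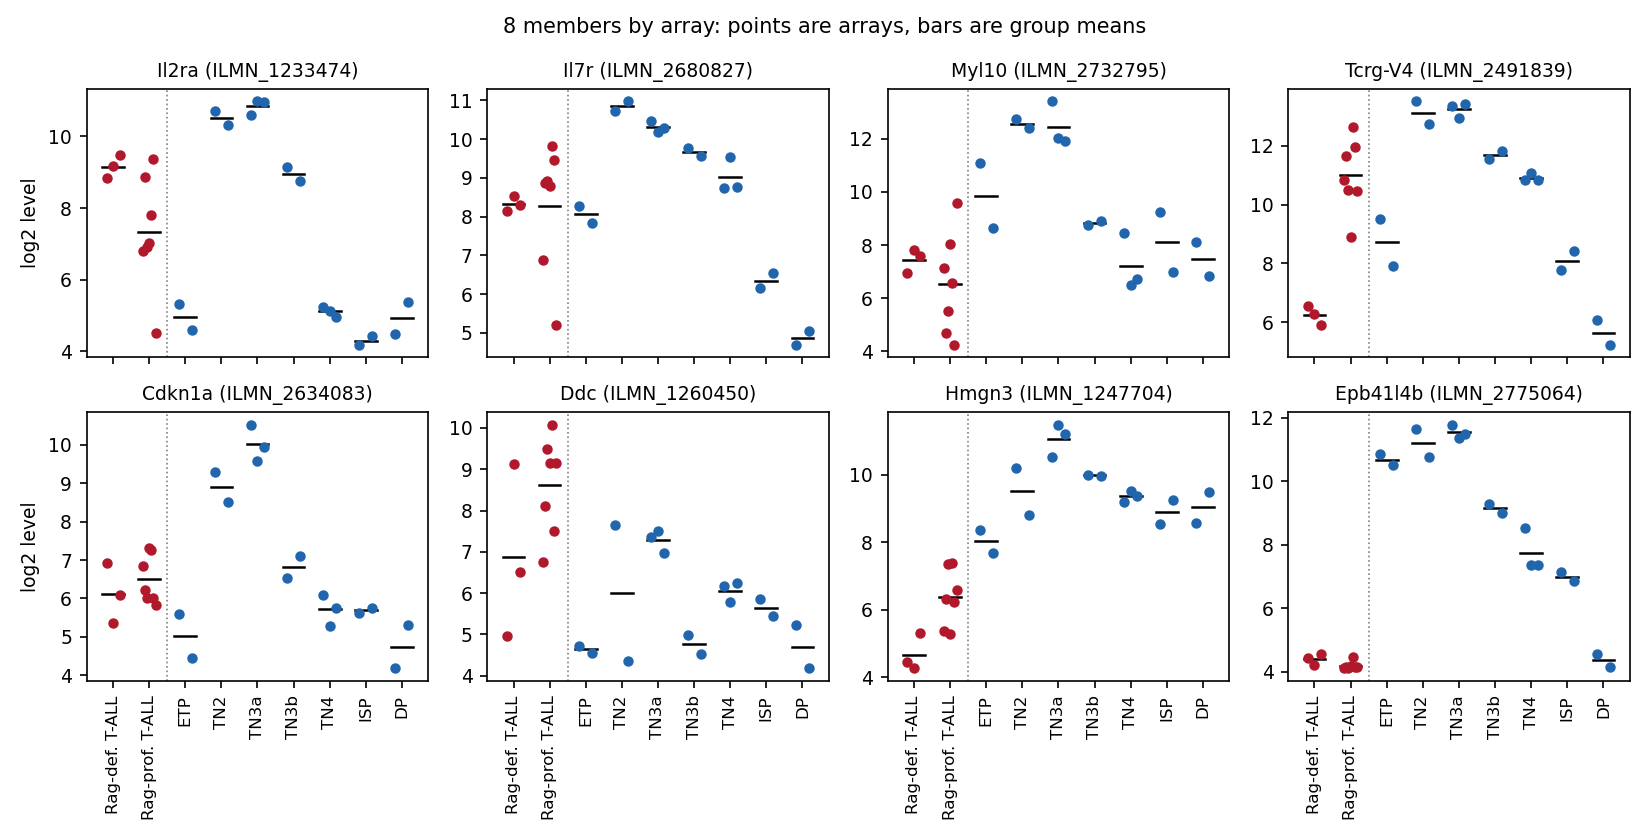
Log2 levels of 8 members (vertical axes) in each group (horizontal axes), with 1 point per array and a bar at each group mean. Il2ra spans 4.51 to 9.38 among the Rag-proficient tumours, and Tcrg-V4 is at 6.55 or below on all 3 Rag-deficient tumours.

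A further 47 probes of the member genes were on the arrays, and 36 of them, from 28 genes, were detected on at least 2 thymocyte arrays. Of these, 23 had a score above 0 and 13 did not, so other probes of a member gene did not always share the pattern. Tcf25, for which 2 probes were members, had another probe with a score below 0. Whether such probes read other transcripts was not tested.

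Genes of the pathways that act at this stage were looked up by score. Since 100 of 46237 probes are members, most genes of any list fall outside. Of 12 Notch target genes with a probe, 2 had a score above 0, and these were Il2ra and Il7r, both members. Dtx1, Notch3 and Ptcra, the last of which encodes the pre-T cell receptor alpha chain, were high in TN3a but not in TN2. On the scale of the rule, where TN2 is replicate 1 alone, Ptcra was at 6.69 in ETP, 6.82 in TN2, 9.88 in TN3a and 8.15 in TN3b, Notch3 at 6.90, 7.81, 10.75 and 8.37 and Dtx1 at 7.68, 7.15, 9.96 and 8.63 in the same stages. One gene of 17 for V(D)J recombination and the pre-T cell receptor (Prkdc, rank 373) and 1 of 17 T lineage factors (Erg, rank 880) had a score above 0. None of 15 progenitor genes and none of 15 cell cycle genes did. Over all probes 2644 of 46237 had a score above 0, and nothing is read from counts this small.

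TN3b is the stage that follows TN3a. The position of TN3b was expressed on a scale on which 0 is the highest of ETP, TN4, ISP and DP and 1 is the lower of TN2 and TN3a. Both ends of this scale are values that chose the members, so positions on it are a description. Over the members the median position was -0.02, with a range of -3.50 to 1.85. At 1 or above were 3 members: Pparg, a nuclear receptor, at 1.85, the unannotated transcript 2700050C19Rik at 1.18 and Esm1 at 1.00. In all 17 members were at 0.5 or above, 32 lay from 0 to below 0.5 and 51 lay below 0. The lowest were Dtx3l, a ubiquitin ligase, at -3.50, Rab38 at -3.32 and B230369L08Rik at -2.63. The TN3b mean was below the TN3a mean in 98 members, below the TN2 mean in 98 and above the TN4 mean in 73. Over all probes the shares were 49.4%, 48.1% and 51.4%. It was at least 2-fold below TN3a in 52 members, as it was in 1.2% of all probes. Since TN2, TN3a and TN4 chose the members, nothing is read from these counts. When arrays were scaled by their medians instead, the median position was -0.15 and 8 members were at 0.5 or above.

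**Figure D3:**
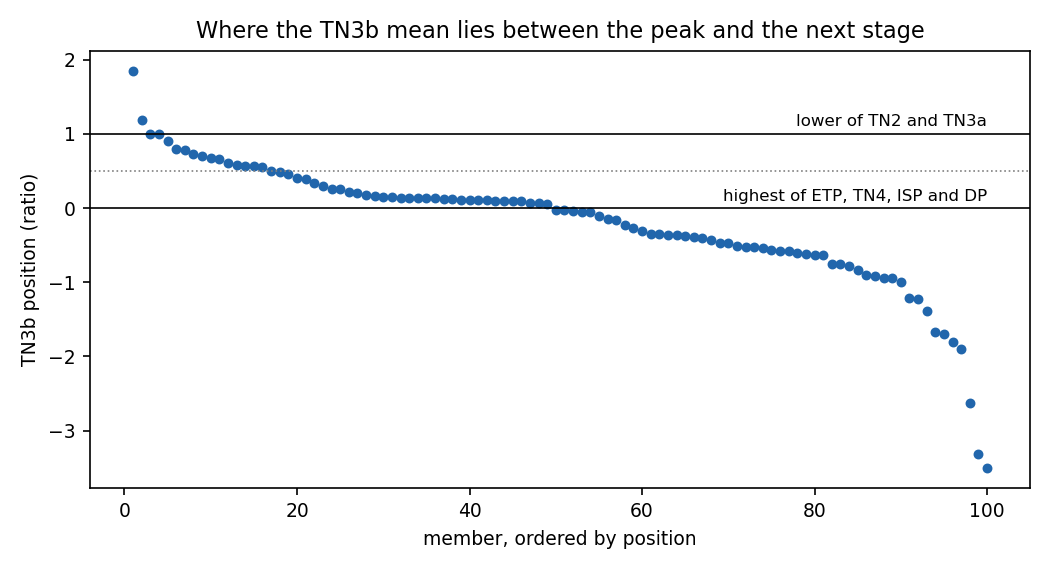
Position of TN3b for each of the 100 members on the scale from the highest other stage (0) to the lower of TN2 and TN3a (1). The median is -0.02, and 17 members are at 0.5 or above.

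The leukaemias were set beside the stages as levels, again between values that chose the members, so the counts are a description with no share over all probes. The Rag-deficient mean reached the lower of TN2 and TN3a in 4 members (Esm1, Gosr2, Ly6c1 and Map7), lay between that and the highest other stage in 29 and was at or below the highest other stage in 67, of which 21 were below every thymocyte stage. For the Rag-proficient mean the counts were 10, 24, 66 and 21. The median member level was 6.66 in Rag-deficient and 7.04 in Rag-proficient tumours. Leukaemias and thymocytes were in separate tables on separate slides, with 0 of 7 slides shared, so the array run and the kind of tissue cannot be told apart.

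Between the tumour types, 96 members were tested with limma. With Benjamini-Hochberg adjustment over all 22951 probes tested, 0 members were higher (0.0697% of all probes were) and 3 were lower in Rag-deficient tumours (0.344% of all probes were). At an unadjusted p under 0.05, 3 were higher and 15 lower, 18 of 96, as were 9.81% of all probes in either direction. The median difference was -0.05 log2 units over the members, against 0.04 over all probes tested.

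The gamma chain segment gave the widest gap. Tcrg-V4 was at 6.55, 6.28 and 5.91 in Rag-deficient tumours, against 8.88 to 12.65 with a median of 10.84 in Rag-proficient tumours. The groups did not overlap, and the difference was -4.78 ± 0.62 log2 units (SE, limma adjusted p = 0.00549). The Rag-deficient tumours overlapped the DP arrays for this probe, and all Rag-proficient tumours lay above those arrays. Vegfa, an angiogenic growth factor, was at 4.19, 4.19 and 4.17 in Rag-deficient tumours, detected on none of them, against 5.29 to 6.86 with a median of 5.97 in Rag-proficient tumours. It was at least 3.71-fold lower, with a limma adjusted p of 0.0155. A lower bound of this kind is used for a probe detected on no array of a group: each dim array is given the probe's own value or the lowest detected signal, whichever is higher. Such a probe entered its fit only through arrays of other groups, and no support is drawn from its p-value. Here Vegfa entered through the Rag-proficient tumours alone, so it could only come out lower in the Rag-deficient ones. H2-Q8 was at 6.15, 6.47 and 5.12 in Rag-deficient tumours, against 7.31 to 8.08 with a median of 7.52 in Rag-proficient tumours, a difference of -1.90 ± 0.31 (SE, limma adjusted p = 0.0208). H2-Q genes have near-identical copies, and the alleles of the strains may differ at the probe, which was not tested. Second probes of Vegfa (-0.88, adjusted p = 0.306) and H2-Q8 (-0.62, adjusted p = 0.398) had the same sign and missed the threshold.

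All 3 Rag-deficient arrays were on slide 3, together with only 1 Rag-proficient array. With the slide as a fixed block none of the 3 calls was kept (limma adjusted p = 0.274 for Tcrg-V4, 0.218 for Vegfa and 0.224 for H2-Q8), while the differences, -4.25, -2.64 and -2.26, were of similar size. Without Rag-deficient replicate 1, 1 member was lower.

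The cytokine receptors did not pass the test between the tumour types. Il2ra was at 8.83, 9.17 and 9.47 in Rag-deficient tumours, against 4.51 to 9.38 with a median of 7.04 in Rag-proficient tumours. The groups overlapped, and the difference of 1.92 ± 0.88 (SE) had a limma adjusted p of 0.511. Il7r was at 8.15, 8.53 and 8.30 in Rag-deficient tumours, against 5.21 to 9.83 with a median of 8.88 in Rag-proficient tumours, a difference of 0.08 ± 0.86 (SE, adjusted p = 0.987). Rag-proficient replicate 7 was the lowest for both receptors and the highest for Myl10.

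Against TN3b, the thymocyte stage outside the score, 99 members were tested in a fit of 25395 probes. In Rag-proficient tumours 10 members were higher (10.1% of those tested, against 8.36% of all probes) and 14 lower (14.1%, against 8.04%). In Rag-deficient tumours 5 were higher (5.05%, against 4.81%) and 16 lower (16.2%, against 3.41%). The median member difference was -0.51 in Rag-proficient and -0.48 in Rag-deficient tumours, against medians of 0.01 and 0.03 over all probes tested. Both comparisons share the same 2 TN3b arrays. These counts include probes detected on no array of 1 group, which could come out in only 1 direction. Among them were Epb41l4b and, in Rag-deficient tumours, Vegfa on the lower side, and H2-Q8 and, in Rag-proficient tumours, Rab38 on the higher side. TN3b lies between TN3a and TN4, whose values chose the members. Nothing is therefore read from the excess over the shares of all probes.

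These counts depended on single arrays. Without TN3b replicate 1, 2 members were higher and 5 lower in Rag-proficient tumours, and 0 higher and 6 lower in Rag-deficient tumours. Without TN3b replicate 2, the counts were 5 and 7 in Rag-proficient and 2 and 9 in Rag-deficient tumours. Without Rag-deficient replicate 2, 0 members were higher and 10 lower in that group, and without replicate 1 or replicate 3 the higher count was 3 or 2. Median scaling moved the median of all probes to 0.37 in Rag-proficient and 0.45 in Rag-deficient tumours. With it, 18 members were higher and 9 lower in Rag-proficient tumours, and 14 higher and 8 lower in Rag-deficient tumours. It kept all 10 and 5 of the higher calls, but 9 of 14 and 8 of 16 of the lower ones. Shares of all probes called under these settings are not given, so nothing about the members is read from these counts.

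The tumours also differed from TN3b in markers of other cells. All 3 red cell markers with a probe were detected in both tumour types, at a summed log2 level of 15.53 to 15.64 in Rag-deficient and 15.58 to 15.88 in Rag-proficient tumours, against 6.06 to 6.68 with 1 marker detected in TN3b. Myeloid markers (7 of 8 detected) summed to 13.25 to 14.17 in Rag-deficient and 12.92 to 15.38 in Rag-proficient tumours, against 7.40 to 7.50 with 2 of 8 detected in TN3b. Among the stages of the score, myeloid markers summed to 14.44 to 14.80 in ETP, 11.72 to 12.54 in TN2 and 9.90 to 11.01 in TN3a. Red cell markers summed to 10.17 to 10.91 in ETP, 11.43 to 12.04 in TN2 and 6.05 to 6.14 in TN3a. B cell markers summed to 7.53 to 7.80 in Rag-deficient and 6.81 to 7.86 in Rag-proficient tumours, against 8.51 to 9.12 in TN3b. That sum was set mostly by Cd79b, which averaged 6.85 and 6.13 in the tumours, against 8.59 in TN3b. Ms4a1, Pax5 and Ebf1 had higher means in both tumour types than in TN3b. Of 4 B cell markers with a probe, 3 were detected in Rag-deficient tumours, 4 in Rag-proficient tumours and 1 in TN3b. The part of the markers of other cells in the member differences was not tested.

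The lower members included genes close to background in the tumours. Epb41l4b, a FERM domain protein of the band 4.1 family, had 2 member probes. ILMN_2775064 was at 4.44, 4.21 and 4.56 in Rag-deficient and 4.11 to 4.46 with a median of 4.14 in Rag-proficient tumours, detected in neither, against 9.28 and 9.01 in TN3b. It was at least 32.3-fold lower in Rag-deficient (limma adjusted p = 1.38e-08) and at least 33.5-fold lower in Rag-proficient tumours (limma adjusted p = 1.23e-09). The probe entered the fit through the TN3b arrays alone, so it could only come out lower, and no support is drawn from these p-values. The DP arrays, at 4.57 and 4.16, were as dim as the tumours. Hmgn3, a nucleosome-binding protein, also fell in both tumour types by both of its probes. ILMN_1247704 was at 4.44, 4.25 and 5.30 in Rag-deficient and 5.29 to 7.37 with a median of 6.32 in Rag-proficient tumours, against 9.99 and 9.96 in TN3b. The differences were -5.66 ± 0.64 (adjusted p = 0.000152) and -3.70 ± 0.56 (adjusted p = 0.000747, SE, limma). No thymocyte stage was as low: its ETP arrays were at 8.37 and 7.68 and its DP arrays at 8.57 and 9.49.

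Akr1c12, an aldo-keto reductase, was at 5.37, 5.81 and 5.58 in Rag-deficient and 5.13 to 6.56 with a median of 5.56 in Rag-proficient tumours, against 8.98 and 8.79 in TN3b. It differed by -3.43 ± 0.38 (limma adjusted p = 0.000144) in Rag-deficient and by -3.39 ± 0.33 (adjusted p = 2.22e-05) in Rag-proficient tumours. Kcnk5, a potassium channel, Ppt1, a lysosomal thioesterase, 2700050C19Rik and the unnamed ILMN_1224021 were lower in both types, by differences of -2.82 to -1.10. Another Kcnk5 probe, ILMN_1232263, was also called lower in both, but ILMN_1249949 was not called (0.28 in Rag-deficient and -0.04 in Rag-proficient tumours). Called lower in Rag-deficient tumours but not in Rag-proficient ones were Tcrg-V4 (-5.50, adjusted p = 0.000931), 1 of 2 Bcl2 probes (-2.55, adjusted p = 0.0138), the copine Cpne2, the complement regulator Cd59a and 2 unnamed probes. Called lower by member probes in Rag-proficient tumours alone were Sestd1, 5830468F06Rik, the junction protein Plekha7, whose groups overlapped, and the acyl-CoA thioesterase Acot7. Another Sestd1 probe, ILMN_1240007, was called lower in both, by -1.42 in Rag-deficient (adjusted p = 0.0189) and -1.77 in Rag-proficient tumours (adjusted p = 0.00127). Vegfa was lower in both, at least 9.53-fold in Rag-deficient tumours (adjusted p = 0.000302) and by -1.48 ± 0.39 in Rag-proficient tumours (adjusted p = 0.0224). Of all members tested, only Tcrg-V4, Vegfa and H2-Q8 passed the test between the tumour types themselves.

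Higher in both tumour types than in TN3b were Map7, Prnp, Dtx3l, Gosr2 and H2-Q8. Map7, a microtubule-associated protein, was at 8.28, 9.25 and 8.61 in Rag-deficient and 6.34 to 9.07 with a median of 8.27 in Rag-proficient tumours, against 5.95 and 6.05 in TN3b. The tumour arrays were all above the TN3b arrays, by 2.80 ± 0.66 (SE, limma adjusted p = 0.0201) and 2.14 ± 0.58 (adjusted p = 0.0231). Prnp, the prion protein, was at 8.41, 9.35 and 8.73 in Rag-deficient and 9.02 to 9.91 with a median of 9.51 in Rag-proficient tumours, against 7.48 and 7.78 in TN3b, with differences of 1.22 (adjusted p = 0.0381) and 1.91 (adjusted p = 0.000746). Dtx3l differed by 1.61 (adjusted p = 0.0305) in Rag-deficient and by 1.56 (adjusted p = 0.0111) in Rag-proficient tumours. Dtx3l had the lowest TN3b position of all members, with TN3b arrays at 7.84 and 8.80. Its tumour means, 9.92 in Rag-deficient and 9.87 in Rag-proficient tumours, lay below the highest of ETP, TN4, ISP and DP, at 10.11. H2-Q8, not detected in TN3b, was at least 2.89-fold higher in Rag-deficient and at least 10.6-fold higher in Rag-proficient tumours, and its second probe was also called higher in both.

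Gosr2, a SNARE protein of the Golgi, differed by 0.96 (adjusted p = 0.0257) in Rag-deficient and by 1.24 (adjusted p = 0.00154) in Rag-proficient tumours by its member probe. Its other probes disagreed: in Rag-proficient tumours ILMN_2600339 was lower (-1.17, adjusted p = 0.00816), ILMN_1224380 higher (0.86, adjusted p = 0.0467) and ILMN_2815107 near 0 (0.08).

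Ddc, which encodes dopa decarboxylase, was the member with the greatest excess in Rag-proficient tumours. By ILMN_1260450 it was at 4.95, 9.12 and 6.52 in Rag-deficient and 6.76 to 10.08 with a median of 9.14 in Rag-proficient tumours, against 4.98 and 4.53 in TN3b. The Rag-proficient arrays were all above TN3b, by 4.14 ± 0.97 (SE, limma adjusted p = 0.012), and the second member probe gave 3.89 (adjusted p = 0.0126). The Rag-deficient arrays spread widely, and the probe was not called there. Another Ddc probe, ILMN_1229396, was not called in Rag-proficient tumours (0.24). Ly6c1, a surface antigen with a close paralog, differed by 2.70 (adjusted p = 0.0486) and Socs2 by 1.88 (adjusted p = 0.0133), both in Rag-proficient tumours. Rab38 was at least 2.69-fold higher there by its member probe (limma adjusted p = 0.00511). That probe was detected on no TN3b array and could only come out higher, so no support is drawn from its p-value. Another Rab38 probe, ILMN_2652721, was not called in Rag-proficient tumours (0.45, limma adjusted p = 0.344).

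Il2ra and Il7r did not pass the test in either comparison with TN3b. For Il2ra the difference was 0.21 ± 1.08 in Rag-deficient (limma adjusted p = 0.932) and -1.70 ± 0.95 in Rag-proficient tumours (adjusted p = 0.238). For Il7r it was -1.36 ± 1.07 (adjusted p = 0.47) and -1.43 ± 0.94 (adjusted p = 0.321), all with SE.

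Among genes of the pathways that act at this stage, Notch targets gave 2 higher and 0 lower of 12 tested in Rag-deficient tumours against TN3b, and 4 higher and 1 lower in Rag-proficient tumours. Dtx1 was higher in both (2.86 each), as was Notch3 (1.56 in Rag-deficient and 2.10 in Rag-proficient tumours), while Hes5 was lower in Rag-proficient tumours (-1.66). Of 11 progenitor genes tested, 3 were higher in Rag-deficient and 5 in Rag-proficient tumours, among them Lmo2 (4.47 and 5.47) and Tal1 (4.15 and 5.08), which encode a partner pair of transcription factors activated in T-ALL. Red cell precursors also express Tal1 and Lmo2. Red cell markers were likewise higher in the tumours than in TN3b, and the part of such cells in these differences was not tested. Of 15 T lineage factors, 2 were higher in Rag-deficient and 4 in Rag-proficient tumours, and of 15 genes for recombination and the pre-T cell receptor 1 was higher in Rag-deficient tumours, with 2 higher and 2 lower in Rag-proficient tumours. Of 13 cell cycle genes 1 was lower in Rag-deficient and 2 in Rag-proficient tumours, including Ccna2 (-2.22 and -2.32). Among all probes of the TN3b fit, 4.81% were called above TN3b and 3.41% below it for Rag-deficient tumours. For Rag-proficient tumours these shares were 8.36% and 8.04%. Between the tumour types no gene of these lists passed the limma test. At an unadjusted p under 0.05 there were 1 Notch target and 6 progenitor genes, against 9.81% of all probes. The median difference of the 11 progenitor genes was -0.74. The lists are small and were chosen with earlier results known, so nothing is read from their counts.

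**Figure D4:**
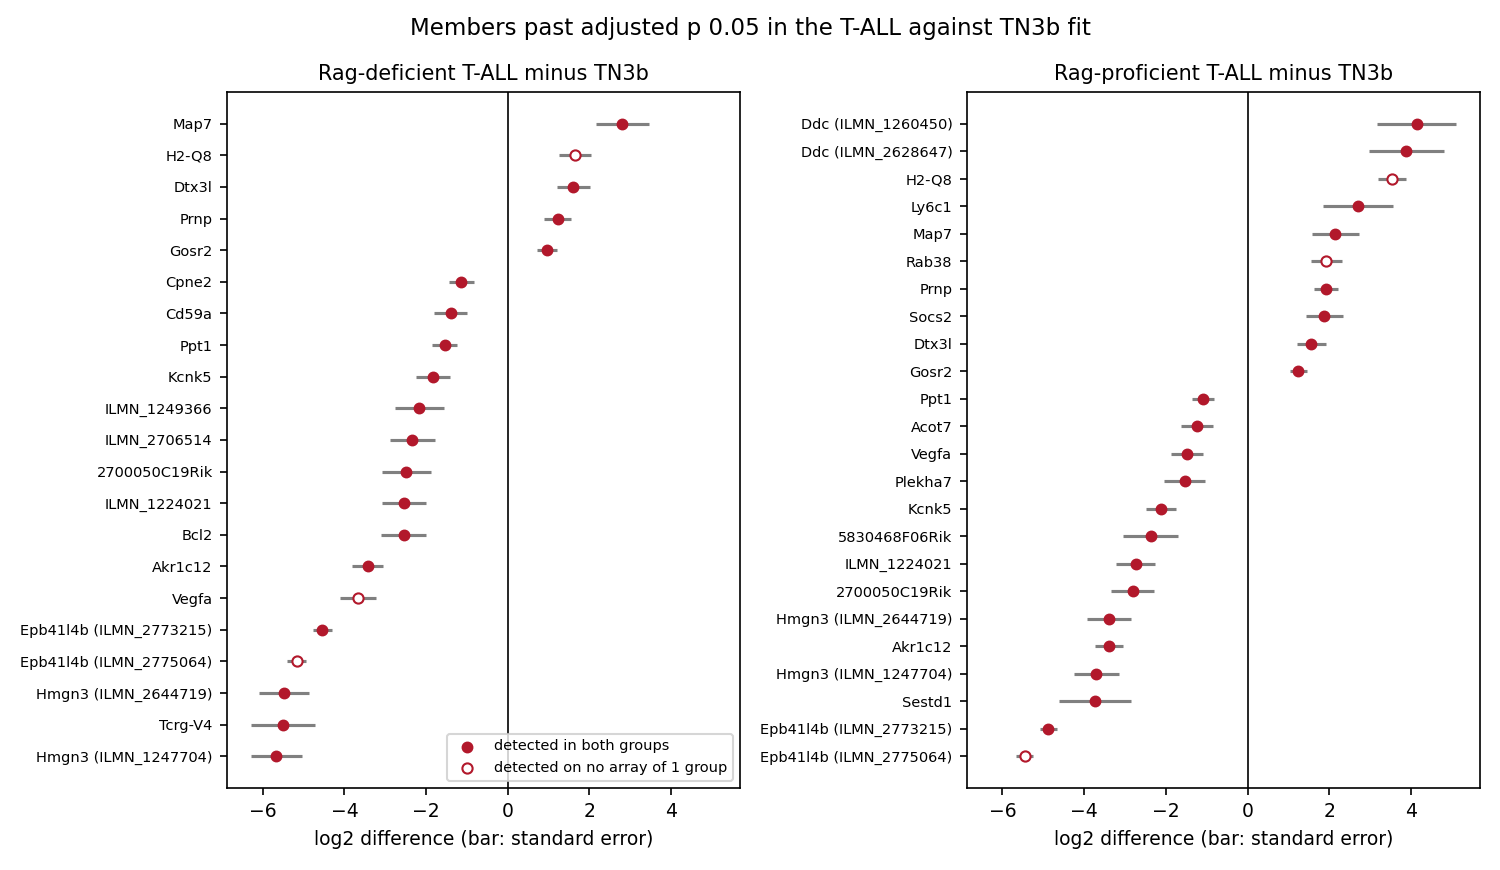
Log2 difference from TN3b, with its standard error, of each member called at a limma adjusted p under 0.05, for Rag-deficient tumours (left) and Rag-proficient tumours (right); open points are members detected on no array of 1 group. The lowest difference is -5.66 in Rag-deficient and -5.45 in Rag-proficient tumours, and the highest in Rag-proficient tumours is 4.14.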

How the data were processed

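Illumina bead arrays were run on 10 mouse T-ALL samples and 16 thymocyte samples. Per the labels' protocols, RNA was isolated with RNAzol B and an Ambion MessageAmp kit gave biotinylated cRNA. The authors deposited linear probe intensity, not background-corrected, for 46089 probes on the T-ALL arrays and 46237 on the thymocyte arrays, with a detection p-value beside each intensity, per the file headers. The T-ALL p-values were treated as 2-sided and converted, since 99.7% to 100% of the dimmest probes on each of those arrays have a p under 0.01, against 0% on thymocyte arrays; detection in tumours rests on this reading. The authors also deposited a joint log2 table, whose thymocyte values are displaced by up to 148 probes after the first 31; it was used only as an alternative, with positions restored. Scanner software is not given in the sources used here.

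Members were chosen from log2 intensity, quantile-normalised over 15 thymocyte arrays without TN2 replicate 2. Members, gene lists and tests were chosen with earlier results of these data known. The rule for named members took the 20 highest scores, those called between tumour types, the 6 largest calls each way against TN3b, the 3 highest and 3 lowest TN3b positions and those around the score threshold; others, such as Il17rb, Stat5a, H19, Cdh1 and Drosha, were named after their values were seen. For tests, intensities were corrected with normexp (offset 16) and quantile-normalised in limma 3.58.1 (R 4.3.3), separately for the 10 T-ALL arrays and for the 12 T-ALL and TN3b arrays. Probes entered a fit when detected (p under 0.01) on 3 or more arrays of the first set or 2 or more of the second. Calls are at a Benjamini-Hochberg adjusted p under 0.05 over all probes tested. Fits were tested on simulated data. The number of arrays limits the precision. Gene names are from the platform annotation (35667 probes of the thymocyte table have 1 name) and promoters from RefSeq.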

Additional observations from a re-analysis of the deposited data

Results flagged for a closer look

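In 11 of 63 named members 1 Rag-proficient tumour stood apart from the other 6 by Dixon's criterion, which chance meets in about 1 in 20 groups. Some of the 63, among them H19, Cdh1 and Drosha, were named after their values were seen. The count is therefore not comparable with that rate, and no share over all probes was computed. The unnamed ILMN_1234973 was at 7.90 on replicate 6 (nearest 5.45), and the unnamed ILMN_1224021 was at 5.82 on replicate 2 (nearest 4.55). Replicate 7 was high for Akr1c12 at 6.56 (nearest 5.74) and for Mst1r (ILMN_2757671) at 5.42 (nearest 4.46). Replicate 5 was high for both Epb41l4b probes, at 4.46 (nearest 4.20) for ILMN_2775064 and 4.72 (nearest 4.44) for ILMN_2773215, all close to background. B230369L08Rik was at 12.38 (nearest 10.85) and Cdh1 at 6.75 (nearest 5.65) on replicate 1. H19 was high on replicate 6 at 8.91 (nearest 4.88), where Drosha (ILMN_3066222) was low at 10.26 (nearest 10.70), and Dpp4 was low on replicate 7 at 10.77 (nearest 11.63).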

How the results depend on the processing

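Among named members called in a comparison, no log2 difference changed sign under the alternatives run. Named members that were not called, such as Il2ra and Il7r, were not followed through the alternatives. With median scaling the balance of members called against TN3b turned from more lower to more higher in both tumour types. The same scaling moved the median of all probes to 0.37 in Rag-proficient and 0.45 in Rag-deficient tumours. Of the 100 members, 75 remained among the highest 100 with normexp correction, 74 with median scaling, 99 without TN3b in the normalisation, 84 to 96 when single arrays were left out, and 66 when TN2 replicate 2 was kept. The median TN3b position was -0.0216 with normexp and -0.15 with median scaling, which left 8 members at 0.5 or above. The 3 members lower in Rag-deficient than in Rag-proficient tumours became 1 with no background correction, 1 with no filter, 0 in the joint table, 0 with the slide as a fixed block, and 1 to 4 without single arrays. With median scaling, 18 members were higher and 9 lower in Rag-proficient tumours than in TN3b, and 14 higher and 8 lower in Rag-deficient tumours; with the joint table or with all 26 arrays in the fit, 3 were higher in Rag-deficient tumours. Leaving out single arrays gave 2 to 10 higher and 5 to 19 lower in Rag-proficient tumours, and 0 to 6 higher and 6 to 18 lower in Rag-deficient tumours. Shares of all probes called under these alternatives are not given, so nothing about the members is read from these counts. The causes of these shifts were not tested. No paired analysis was possible because the replicate numbers follow accession order; slides, which hold arrays of several groups, were tried as a block between the tumour types, and T-ALL and TN3b share none. With 2 arrays of TN3b, and TN2 represented by 1 array in the score, the spread within these stages is poorly known, and probes near background have only bounds.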

Other observations

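Members varied among the Rag-proficient tumours more widely than probes at large: the median SD over the 7 arrays was 0.582 log2 units for the members, against 0.198 for all probes, a description with no test, since dim probes vary little. Chosen after their values were seen, the most variable included Mzb1 (SD 2.24), an endoplasmic reticulum protein of B cells, at 4.44 to 10.04, Aldh1b1 (SD 1.98), Myl10 (SD 1.90) at 4.23 to 9.57, and H19 (SD 1.68), which was at 8.91 on replicate 6 and at most 4.88 on the other tumours of that type. Il7r (SD 1.65) and Il2ra (SD 1.59) were in the same range.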
